A study of Mus musculus with 18 samples.

Results

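The genes described here are 9 members of the pathway by which denervated skeletal muscle is known to change its transcription: the class IIa histone deacetylases Hdac4, Hdac5, and Hdac9, the corepressor Dach2, the transcription factors Mef2a, Mef2c, and Mef2d, the stress gene Gadd45a, and the cyclin-dependent kinase inhibitor Cdkn1a. They were listed by name, with no threshold on their values, but with earlier results of these data known. Their levels were found by summing the TPM of all Ensembl transcripts of each gene. They are 9 of the 35150 genes summed in this way. The values are TPM, the share of a transcript among all transcripts corrected for length, which the authors had also normalized between samples, so that the sum differs from sample to sample. Levels of different genes can be set side by side.

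RNA was taken from both sides of the face of 9 adult mice of both sexes, whose genotype is not given in the sources used here. On the right (denervated) side 2 branches of the facial nerve, buccal and superior marginal, had been cut, and on the left (sham) side the skin was opened and closed again over an intact nerve. Tissue was taken 1, 3, or 7 days after surgery from 3 mice each, which gives 18 samples in pairs, each a piece of rostral whisker pad holding skin with its muscle. All lesions were on the right, so an effect of the lesion and one of the right side cannot be told apart. In such pieces of mixed tissue, fewer cells of a type and less RNA per cell cannot be told apart either.

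Class IIa histone deacetylases bind MEF2 factors on muscle genes and keep them silent. Electrical activity of the muscle activates kinases that phosphorylate these deacetylases and send them out of the nucleus. When the nerve is lost, Hdac4 and Hdac5 are known to gather in the nucleus and to repress Dach2, a corepressor of the myogenin gene. Myogenin then rises and switches on acetylcholine receptor genes and atrophy genes. Gadd45a is known as a target of ATF4 and, in denervated limb muscle, of HDAC4. In muscle it lies upstream of Cdkn1a, which encodes p21.

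The promoters of Hdac5 and Hdac9 are shown for their motifs and because these were the members whose levels were lower after denervation. Among 14 promoter windows of the 9 members, only the windows shown hold a MEF2-type motif. A further Hdac9 window, at chr12:34917096-34917345, holds none. Each window is the 250 bases before a transcription start in RefSeq (build GRCm38.p6), written 5′ to 3′ on the minus strand, and the capitals mark the motif CTANNNNTAG, which was searched on both strands. The Hdac5 window lies at chr11:102230173-102230422, and its motif begins at position -20 from the start. The Hdac9 window shown lies at chr12:34528890-34529139, just upstream of the first exon of the transcript Hdac9-201, and its motif begins at position -32.
Hdac5 promoter: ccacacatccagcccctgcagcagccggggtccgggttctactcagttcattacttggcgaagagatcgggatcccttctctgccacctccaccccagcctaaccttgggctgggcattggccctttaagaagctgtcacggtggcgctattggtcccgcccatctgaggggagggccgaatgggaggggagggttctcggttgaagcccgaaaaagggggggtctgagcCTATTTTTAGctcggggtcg
Hdac9 promoter: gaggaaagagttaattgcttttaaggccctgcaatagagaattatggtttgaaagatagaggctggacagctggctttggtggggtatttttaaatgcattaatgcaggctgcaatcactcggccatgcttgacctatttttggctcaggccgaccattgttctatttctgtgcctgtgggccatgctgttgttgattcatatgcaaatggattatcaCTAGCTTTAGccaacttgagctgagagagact

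The motif CTANNNNTAG was found in 3.2% of 32851 promoter windows of the same length. The classical MEF2 site has only A or T in its middle positions; the Hdac5 match has that form, which 0.508% of the windows hold, and the Hdac9 match does not. The E-box CANNTG, the core of myogenin binding sites, was in 66.2% of all windows, with 1 match in the Gadd45a window (position -67), 1 in the Hdac5 window, 3 in the Hdac9 window shown, and none in those of Hdac4, Mef2a, and Mef2d. The motif TGATGCAA, a form of the ATF4 response element, was in 0.791% of windows, and the cAMP response element TGACGTCA was in 1.55%; neither was in a window of any member. A match is a run of letters and no evidence of binding, and its absence says only that these letters are not in this window.

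The coding stretches in which the 2 main Mef2c transcripts differ are shown because both transcripts were abundant and their values are given separately. All are on the plus strand of chromosome 13 in build GRCm38, taken from GENCODE release M21, with no part in capitals. Mef2c-212, of 442 codons, holds an exon of 144 bases at chr13:83625265-83625408 and a short one of 24 bases at chr13:83654598-83654621. Mef2c-201, of 464 codons, holds instead of the first an exon of 138 bases at chr13:83625470-83625607, and its last exon begins earlier, by 96 coding bases at chr13:83662307-83662402. The exons of 144 and 138 bases are alternatives of each other, and the one of 138 bases is known as the form that striated muscle prefers.
Mef2c-212, exon of 144 bases: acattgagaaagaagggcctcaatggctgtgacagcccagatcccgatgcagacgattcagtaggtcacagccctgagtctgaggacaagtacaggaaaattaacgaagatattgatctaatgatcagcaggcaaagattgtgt
Mef2c-212, exon of 24 bases: tctgaggatgtggatctgctgttg
Mef2c-201, exon of 138 bases: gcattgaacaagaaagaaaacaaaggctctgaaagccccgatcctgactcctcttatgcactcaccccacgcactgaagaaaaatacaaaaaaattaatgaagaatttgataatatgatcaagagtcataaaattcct
Mef2c-201, start of the last exon, 96 bases: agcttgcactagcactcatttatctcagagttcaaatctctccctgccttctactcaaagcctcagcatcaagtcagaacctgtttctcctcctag

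Muscle RNA varied among the pads. The summed TPM of 8 muscle fibre markers ran from 9934 to 18240 at days 3 and 7 on either side, and none of the 8 was at 0 in any sample. In mouse 1 of day 1 it was 2811 on the sham side and 3990 on the denervated side, lower than in the other 16 samples, where the lowest sum was 8624. Values without this mouse are given for some of the results, and not for each one that moved. Depth was estimated at 10300000 to 32100000 reads per sample from the steps in low values.

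Over all days, 8 of the 9 members passed the filter on low values (a TPM of 1 or more in 47% of the samples or more), and 5 of these 8 changed in limma's moderated test with Benjamini-Hochberg adjustment over all genes at 0.05. Of all 14757 genes tested, 3.1% changed. The members were chosen with earlier results of these data known, so that this share is given as a description. Hdac4, Gadd45a, and Cdkn1a were higher on the denervated side, and Hdac5 and Hdac9 were lower. Each of these 5 genes moved in the same direction in 9 of 9 mice. Mef2a, Mef2c, and Mef2d did not pass the test, and each was higher in 6 of 9 mice, with signs that differed by day or mouse. Dach2 was below the filter. Blocking on the mouse left the same 5 members (3.5% of all genes passed). Each call at a single day was lost when at least 1 of the 3 mice of that day was left out.

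**Figure D1:**
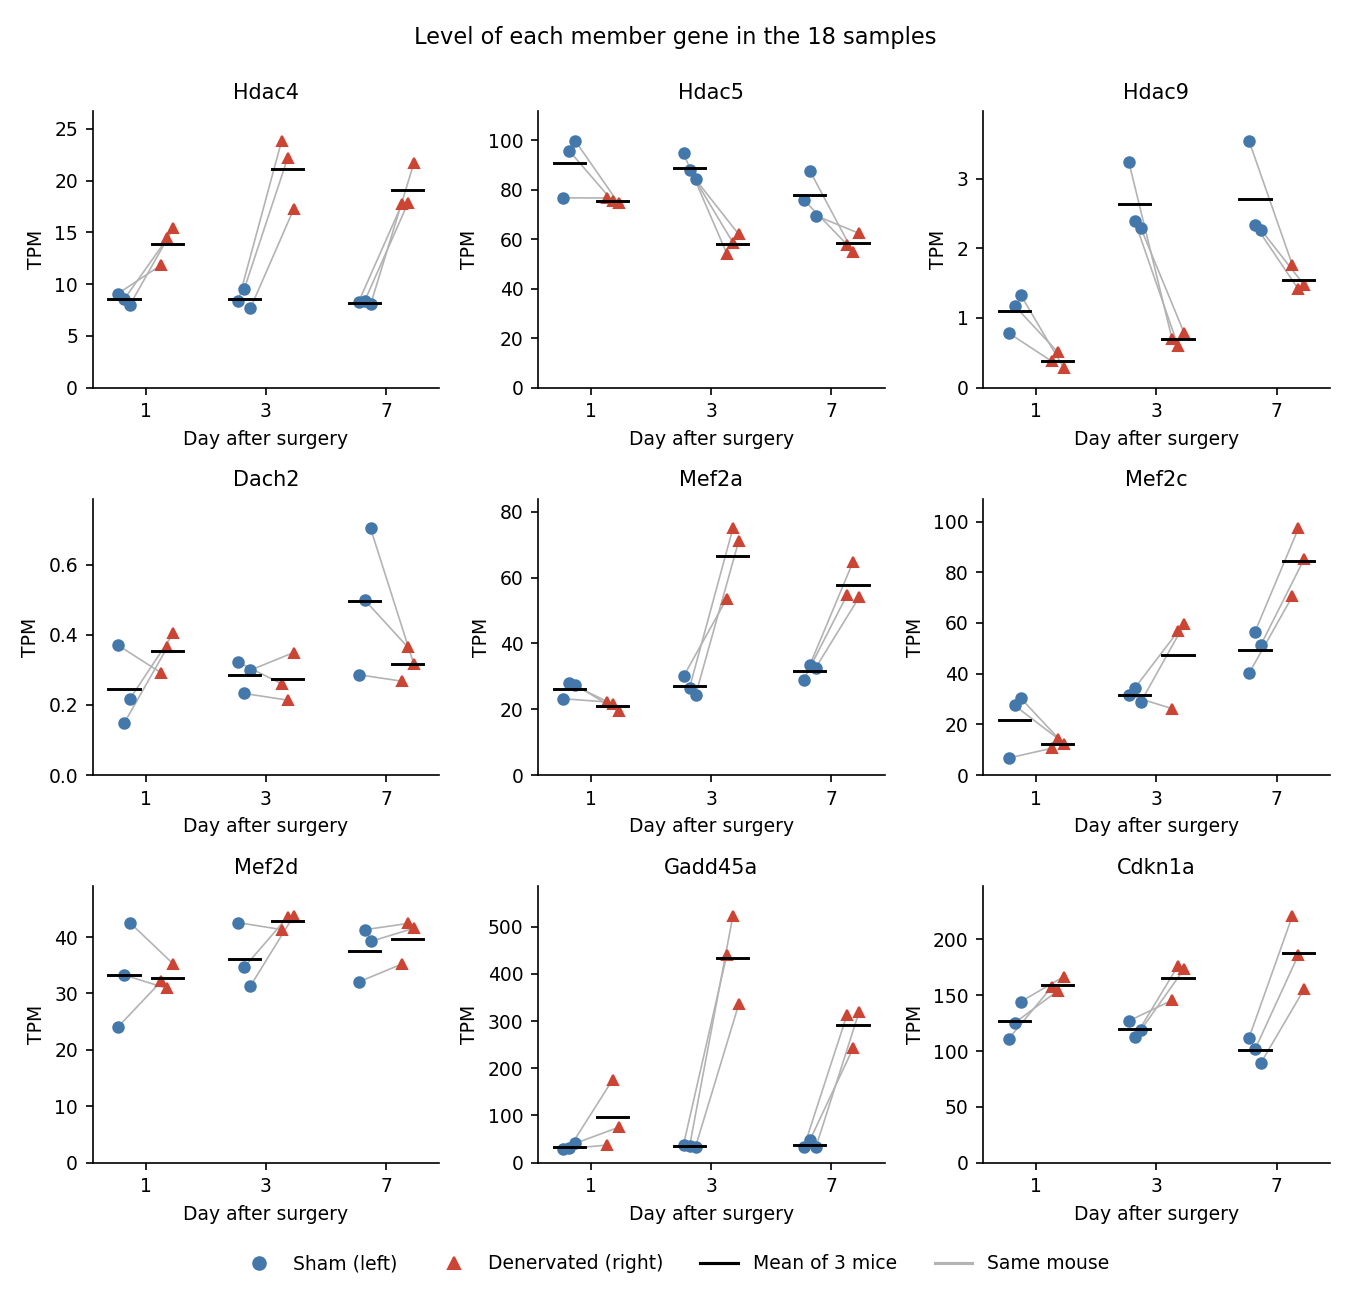
Level of each of the 9 members in TPM (y axis, from 0) on the sham side (blue circles) and the denervated side (red triangles) at days 1, 3, and 7 (x axis). Grey lines join the sides of 1 mouse and black bars are means of 3 mice. Hdac4 and Cdkn1a sit higher on the denervated side in each mouse, Hdac9 lower, and Gadd45a goes from 28.8 to 47.3 TPM in sham samples to at least 242.6 TPM in denervated samples of days 3 and 7.

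Hdac4, the class IIa deacetylase best known for its rise in denervated limb muscle, lies at chr1:91928779-92195699 on the minus strand. Its sham level was 9.09, 8.52, and 8.02 TPM in the 3 mice of day 1, and the denervated level in the same mice was 11.9, 14.4, and 15.4 TPM. By day 3 the sham samples read 8.36, 9.55, and 7.65 TPM and the denervated samples 23.8, 22.2, and 17.2 TPM. On day 7 the sham values were 8.27, 8.35, and 8.04 TPM, and the denervated values were 17.7, 17.8, and 21.7 TPM. The sham samples stayed between 7.65 and 9.55 TPM over the week, and each of the 9 denervated samples was above all of them.

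The mean within-mouse log2 difference of Hdac4 was 0.66 ± 0.27 (SD, n = 3 mice) at day 1, 1.25 ± 0.18 on day 3, and 1.16 ± 0.19 at day 7. Over all days the log2 fold change was 1.03 (SE 0.10, 95% interval 0.82 to 1.23), a 2.04-fold rise (limma, adjusted p = 2.28e-05). At day 1 the adjusted p was 0.743 with that day fitted alone. At day 3 (adjusted p = 0.0171) and day 7 (adjusted p = 0.00891) Hdac4 passed the test. The transcript Hdac4-202, of 1076 codons, held 87% of the Hdac4 TPM and rose by 1.08 on the log2 scale over all days (limma, adjusted p = 0.000139).

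Hdac5, the second class IIa deacetylase, lies at chr11:102194432-102230166 on the minus strand. It was the most abundant of the 3 by summed TPM, most of it from transcripts that are not protein coding. In denervated samples of day 3 its protein-coding transcripts summed to 10.5, 11.9, and 12.7 TPM, below the coding transcript Hdac4-202 (22.4, 19.9, and 15.7 TPM). In their sham partners the order was the reverse (27.9, 21.7, and 19.3 TPM against 7.38, 7.58, and 7.24 TPM). Over all Hdac5 transcripts, sham samples of day 1 held 76.8, 95.8, and 99.8 TPM, and their denervated partners 76.7, 75.4, and 74.6 TPM. The values for day 3 were 94.7, 87.9, and 84.2 TPM on the sham side and 54.2, 58.7, and 62.0 TPM on the denervated side. For day 7 they were 76.0, 87.8, and 69.6 TPM against 57.9, 54.8, and 62.4 TPM. The sides did not overlap within any day, although the 2 samples of mouse 1 at day 1 were nearly equal.

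The fall of Hdac5 was small: the log2 fold change over all days was -0.42 (SE 0.07, 95% interval -0.57 to -0.27), a level of 0.746 of sham (limma, adjusted p = 0.00244). At day 3 it was -0.61 (SE 0.09, adjusted p = 0.0392), and it was -0.25 at day 1 and -0.41 at day 7, where it did not pass the test. Blocking on the mouse gave an adjusted p of 0.0788 at day 3. The identity of the Hdac5 signal is uncertain, because 79% of its TPM was assigned to transcripts annotated as retained introns or otherwise not protein coding, led by Hdac5-218 (26.2%), Hdac5-213 (14.9%), and Hdac5-212 (12.8%). Summed over protein-coding transcripts only, Hdac5 changed by -0.56 on the log2 scale over all days (adjusted p = 0.04) and by -0.93 at day 3 (adjusted p = 0.0471), and in mouse 3 of day 7 the coding sum was higher on the denervated side (13.9 TPM) than on the sham side (9.76 TPM). Among the long coding transcripts, Hdac5-204, of 1115 codons and 11.7% of the gene's TPM, was at -1.17 over all days (SE 0.39, adjusted p = 0.238), and Hdac5-202, of 1102 codons and 3.55%, was at 1.11 (SE 0.44, adjusted p = 0.369), so that neither passed and their signs were opposite.

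Hdac9, at chr12:34047580-34917095 on the minus strand, was the scarcest of the deacetylases that could be tested, with an estimated 21.7 to 198 reads per sample. Its sham level in the mice of day 1 was 0.786, 1.18, and 1.33 TPM, and its denervated level 0.378, 0.509, and 0.282 TPM. In the mice of day 3, sham samples had 3.24, 2.39, and 2.29 TPM and denervated samples 0.699, 0.597, and 0.786 TPM. In those of day 7, sham samples had 3.54, 2.33, and 2.27 TPM and denervated samples 1.76, 1.41, and 1.47 TPM. The sides did not overlap at any day, and the sham samples of day 1 were all below those of days 3 and 7.

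On the log2(TPM + 0.5) scale, which understates changes of low genes, Hdac9 changed by -0.95 over all days (SE 0.14, 95% interval -1.24 to -0.67; limma, adjusted p = 0.000645). By the ratio of group means, denervated Hdac9 was at 0.355 of sham at day 1, 0.263 on day 3, and 0.571 at day 7. It was below the filter at day 1. At day 3 it passed the filter through its sham samples alone, so that it had to differ to be tested there (-1.39, adjusted p = 0.0392), and at day 7 it did not pass (-0.63, adjusted p = 0.32). The mouse as a block gave an adjusted p of 0.0727 at day 3.

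Hdac9 is known to be spliced to a short form that binds MEF2 but lacks the deacetylase domain. The short transcript Hdac9-201, of 588 codons, held 82% of the gene's TPM, and Hdac9-205, of 1064 codons, held most of the rest. Mean Hdac9-201 was 0.88 TPM in sham and 0.236 TPM in denervated samples at day 1, 2.3 and 0.483 TPM on day 3, and 2.36 and 1.2 TPM at day 7, and it was lower on the denervated side in 9 of 9 mice (log2 fold change over all days -1.04, limma, adjusted p = 0.00272). Mean Hdac9-205 was 0.148 and 0.13 TPM at day 1, 0.17 and 0.159 TPM on day 3, and 0.256 and 0.297 TPM at day 7. The long form was below the filter and was not tested. Its share of the gene's TPM was higher on the denervated side in 9 of 9 mice, with mean shares of 12.9% in sham and 33.9% in denervated samples at day 1, 6.35% and 23.2% on day 3, and 10.1% and 19.2% at day 7. The difference between the transcripts was noticed in these data and was not tested.

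**Figure D2:**
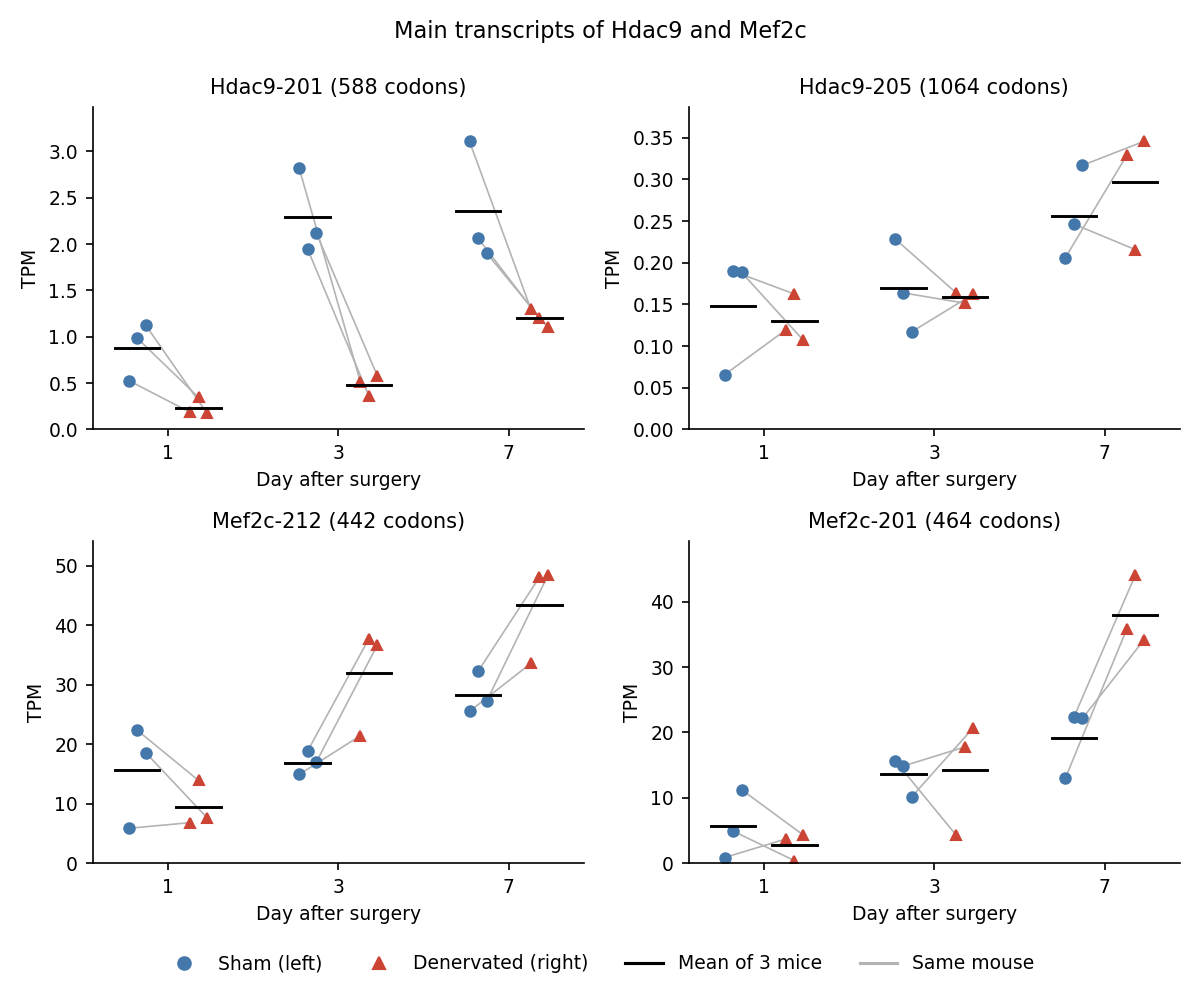
Levels in TPM (y axes, each from 0) of the transcripts Hdac9-201, Hdac9-205, Mef2c-212, and Mef2c-201 on the sham side (blue circles) and the denervated side (red triangles) at days 1, 3, and 7 (x axes), with grey lines joining the sides of 1 mouse and black bars at means of 3 mice. Hdac9-201 is lower on the denervated side in each mouse, while Hdac9-205 overlaps between sides at each day. Mef2c-212 is higher on the denervated side in the 3 mice of day 3 and both Mef2c transcripts are higher in the 3 mice of day 7.

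Dach2, the corepressor of myogenin, lies at chrX:113297510-113836386 on the plus strand. It was near the limit of detection, with an estimated 4.9 to 24.7 reads per sample. In sham samples it was 0.37, 0.148, and 0.218 TPM at day 1, 0.322, 0.233, and 0.299 TPM on day 3, and 0.286, 0.5, and 0.703 TPM at day 7. In denervated samples it was 0.291, 0.364, and 0.404 TPM, then 0.26, 0.214, and 0.349 TPM, then 0.268, 0.365, and 0.316 TPM. The sides overlapped at each day, and the values were lower on the denervated side in 3 of 3 mice at day 7 and in 1 of 3 at day 1. Dach2 was below the filter and entered only the limma fit of all genes with TPM above 0. There its difference in log2(TPM + 0.5) was -0.03 over all days (95% interval -0.23 to 0.17) and -0.27 at day 7 (95% interval -0.73 to 0.19, adjusted p = 0.742). At these levels the added 0.5 shrinks both the differences and their intervals. By the ratio of group means, denervated Dach2 was at 1.44 of sham at day 1, 0.965 on day 3, and 0.637 at day 7. A difference in Dach2 was not detectable at this depth.

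Mef2a, one of the MEF2 factors that class IIa deacetylases bind, lies at chr7:67231163-67372858 on the minus strand. At day 1 its level was 23.2, 27.9, and 27.5 TPM in sham samples and 22.2, 21.6, and 19.4 TPM in denervated ones, lower in 3 of 3 mice. At day 3 it was 30.0, 26.6, and 24.3 TPM against 53.7, 74.9, and 71.3 TPM, higher in 3 of 3 mice. At day 7 it was 29.0, 33.4, and 32.7 TPM against 54.8, 64.9, and 54.1 TPM, again higher in 3 of 3 mice. The sides did not overlap at any day, and the direction at day 1 was opposite to that at days 3 and 7.

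The log2 fold change of Mef2a was -0.31 at day 1 (SE 0.12, limma, adjusted p = 0.999), 1.28 at day 3 (SE 0.15, adjusted p = 0.0168), and 0.86 at day 7 (SE 0.12, adjusted p = 0.0241). As the signs differed, the change over all days (0.61) did not pass (adjusted p = 0.0797), but it did without mouse 2 of day 1 (adjusted p = 0.0476) or mouse 3 of day 1 (adjusted p = 0.0251). Mef2a-208, of 498 codons, held 96% of its TPM.

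Mef2c, at chr13:83504034-83667080 on the plus strand, is a MEF2 factor needed for muscle development and fibre maintenance. At day 1 the sham side had 6.75, 27.5, and 30.5 TPM and the denervated side 10.6, 14.5, and 12.2 TPM. At day 3 the sham side had 31.5, 34.4, and 28.8 TPM and the denervated side 26.2, 56.8, and 59.4 TPM. At day 7 the sham side had 40.2, 56.6, and 51.5 TPM and the denervated side 70.5, 97.3, and 85.4 TPM. The sides overlapped at days 1 and 3 and were apart at day 7, and the lowest sham value belonged to mouse 1 of day 1, whose muscle markers were low.

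The log2 fold change of Mef2c was 0.77 at day 7 (SE 0.18, 95% interval 0.34 to 1.19), which missed the threshold in the unblocked fit (limma, adjusted p = 0.124) and passed with the mouse as a block (adjusted p = 0.0261). The within-mouse differences at day 7 were 0.80, 0.78, and 0.72. At day 1 it was -0.52 (adjusted p = 0.999), and -1.09 without mouse 1 (adjusted p = 0.0912). Over all days the change was 0.25 (95% interval -0.32 to 0.82, adjusted p = 0.765).

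The 2 Mef2c transcripts whose exons are shown above held 59% (Mef2c-212) and 37.9% (Mef2c-201) of its TPM. At day 3 Mef2c-212 was higher on the denervated side in 3 of 3 mice, from a mean of 16.9 to 32.0 TPM, while Mef2c-201 had means of 13.6 and 14.3 TPM and a lower share of the gene on the denervated side in 3 of 3 mice. At day 7 both were higher in 3 of 3 mice, Mef2c-212 from a mean of 28.3 to 43.4 TPM and Mef2c-201 from 19.2 to 38.0 TPM. Mef2c-201, the form with the muscle-type exon, was lowest at day 1, with means of 5.68 TPM in sham and 2.83 TPM in denervated samples, and at 0.41 TPM in the denervated sample of mouse 2. Neither transcript passed the test over all days (adjusted p = 0.795 for Mef2c-212 and 0.992 for Mef2c-201), and most of their sequence is shared, so that the split between them is an estimate.

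Mef2d, at chr3:88142372-88172086 on the plus strand, had 24.1 to 42.5 TPM in sham samples and 30.9 to 43.7 TPM in denervated samples. The sides overlapped at each day. Its log2 fold change over all days was 0.12 (95% interval -0.09 to 0.32, limma, adjusted p = 0.666).

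Gadd45a, a small nuclear protein induced by stress, lies at chr6:67035096-67037457 on the minus strand and showed the largest change of the members. Its sham level was 28.8, 30.8, and 41.0 TPM at day 1, and the denervated level 37.2, 175.6, and 75.0 TPM. At day 3 it was 38.3, 35.1, and 34.0 TPM on the sham side and 440.7, 522.5, and 336.3 TPM on the denervated side. At day 7 it was 32.3, 47.3, and 32.5 TPM against 313.7, 242.6, and 319.6 TPM. Mouse 1 of day 1, the one with low muscle markers, had the smallest difference, and from day 3 on each denervated sample was at least 5.13 times its sham partner.

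The log2 fold change of Gadd45a was 1.24 at day 1 (SE 0.53, 95% interval -0.05 to 2.53, limma, adjusted p = 0.999), 3.56 at day 3 (SE 0.17, adjusted p = 0.000743), and 2.96 at day 7 (SE 0.19, adjusted p = 0.00228). Over all days it was 2.59 (SE 0.32, adjusted p = 0.000213), a 6.01-fold rise. At day 1 the 3 mice ranged from a log2 difference of 0.36 to 2.49, and without mouse 1 the fold change was 1.68 (adjusted p = 0.222). Gadd45a-201, of 165 codons, held 96.6% of the TPM and rose by 2.62 on the log2 scale (adjusted p = 0.000869), and Gadd45a-202, a retained-intron transcript with 2.6% of the TPM, rose by 1.60 (adjusted p = 0.00272).

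Cdkn1a, at chr17:29090976-29100727 on the plus strand, encodes p21, which halts the cell cycle. Day 1 gave 110.8, 125.1, and 144.1 TPM in sham samples and 157.5, 154.1, and 166.7 TPM in denervated samples. Day 3 gave 127.0, 112.4, and 118.8 TPM and 145.5, 176.5, and 173.5 TPM. Day 7 gave 111.9, 101.6, and 89.6 TPM and 221.0, 186.1, and 155.8 TPM. The denervated samples were above the sham samples within each day, and the lowest denervated sample of all (145.5 TPM) was just above the highest sham sample (144.1 TPM).

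Over all days Cdkn1a rose by 0.56 on the log2 scale (SE 0.09, 95% interval 0.36 to 0.76, limma, adjusted p = 0.00245), or 1.48-fold. The mean within-mouse difference was 0.34 ± 0.15 (SD, n = 3 mice) at day 1, 0.46 ± 0.24 on day 3, and 0.88 ± 0.09 at day 7. With each day fitted alone none of these passed (adjusted p = 0.999, 0.124, and 0.0595), and day 7 passed with the mouse as a block (adjusted p = 0.019) and in the fit that shares the spread of all 18 samples (adjusted p = 0.00344). Cdkn1a-201 held 97.8% of the TPM and rose by 0.57 (adjusted p = 0.00813).

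**Figure D3:**
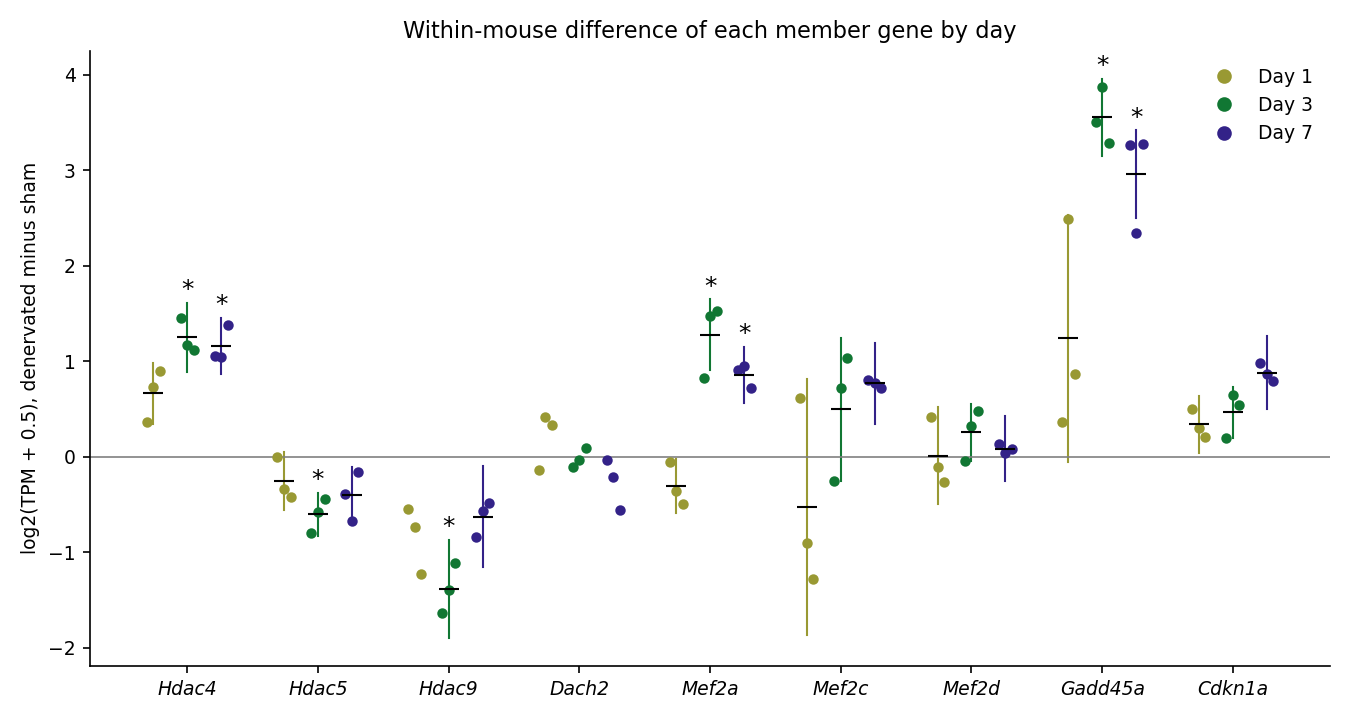
Within-mouse difference in log2(TPM + 0.5), denervated minus sham (y axis), of each member (x axis) at day 1 (olive), day 3 (green), and day 7 (blue). Points are single mice and black ticks are means. Vertical lines are 95% intervals from the limma fit of that day without the mouse as a block, drawn where the gene was tested. They rest on the spread between samples and not on that of the points. Asterisks mark an adjusted p below 0.05 in the same fit. Asterisks stand over 5 members at day 3, of which Hdac9 was tested only through its sham samples, and over 3 at day 7, and Mef2a lies below 0 at day 1 and above 0 at days 3 and 7.

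By day, 0 of 7 members tested passed at day 1, where 0.0% of 14776 genes passed in limma. At an unadjusted p below 0.05 there were 3 members (Hdac4, Cdkn1a, and Mef2a) and 634 genes at that day, and with the mouse as a block no member passed either. At day 3, 5 of 8 passed (Hdac4, Mef2a, and Gadd45a higher, Hdac5 and Hdac9 lower), against 1.45% of 14943 genes. Hdac9 was tested at day 3 only because its sham samples passed the filter, and of the 7 other members 4 passed. At day 7, 3 of 8 passed (Hdac4, Mef2a, and Gadd45a, all higher), against 1.53% of 15081 genes. With the mouse as a block, 3 members passed at day 3 (Hdac4, Mef2a, and Gadd45a) where 1.45% of genes did, and 5 passed at day 7 (Mef2c and Cdkn1a in addition) where 2.17% of genes did.

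The order of the changes was tested as the difference of the effect between days. Of the 8 members Mef2a alone passed: its log2 fold change was higher at day 3 than at day 1 by 1.58 (SE 0.19, limma, adjusted p = 0.00188; 0.122% of genes passed) and higher at day 7 than at day 1 by 1.16 (SE 0.19, adjusted p = 0.0192; 0.163% of genes passed). With the mouse as a block the first passed (adjusted p = 0.0199) and the second did not (adjusted p = 0.0951, where 0.142% of genes passed). The second was also lost without mouse 2 or 3 of day 1 (adjusted p = 0.138 and 0.2) or without any 1 mouse of day 7 (adjusted p = 0.148, 0.153, and 0.11). Rescaled to the muscle markers, the 2 differences were 1.39 and 1.00, and neither passed. The difference between days 1 and 3 for Gadd45a was 2.32 (SE 0.54, adjusted p = 0.125), for Mef2c 1.02 (SE 0.61, adjusted p = 0.67), and for Hdac4 0.59 (SE 0.19, adjusted p = 0.315). Without mouse 1 of day 1 these were 1.88 (adjusted p = 0.0677), 1.59 (adjusted p = 0.0971), and 0.44 (adjusted p = 0.401), and without mouse 2 of day 1 Gadd45a passed (adjusted p = 0.0129). Between days 3 and 7, 0 of 8 members and 0.0% of genes passed in limma, with 3 members (Hdac9, Mef2a, and Cdkn1a) and 1013 genes at an unadjusted p below 0.05. The largest mean difference fell at day 3 for Hdac4, Hdac5, Hdac9, Mef2a, and Gadd45a and at day 7 for Mef2c and Cdkn1a, as a description.

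Within mice, the exact sign-flip permutation test (two-sided) on the 9 differences gave p = 0.0039 for Hdac4, Hdac5, Hdac9, Gadd45a, and Cdkn1a, the smallest that 9 mice allow. For Mef2a the exact p was 0.051, for Mef2c 0.39, and for Mef2d 0.19. Adjusted over all genes the smallest p was 0.116, so that 0 of 8 members and 0.0% of genes could pass; 496 genes shared the smallest unadjusted p. Among 31294 transcripts tested with limma over all days, 0.888% passed, and 5 of the member transcripts did: Hdac4-202, Hdac9-201, Gadd45a-201, Gadd45a-202, and Cdkn1a-201.

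The calls at single days rest on 3 mice each, and leaving out 1 of them left 2 samples against 2. At day 3, without mouse 1, 2, or 3 in turn, the adjusted p was 0.115, 0.239, and 0.117 for Hdac4, 0.126, 0.49, and 0.232 for Hdac5, and 0.172, 0.378, and 0.272 for Hdac9. Mef2a at day 3 was lost without mouse 2 (adjusted p = 0.287) or mouse 3 (adjusted p = 0.238), and Gadd45a without mouse 3 (adjusted p = 0.0647). For day 7 the adjusted p was 0.0597, 0.205, and 0.183 for Hdac4 and 0.116, 0.294, and 0.289 for Mef2a, and Gadd45a was lost without mouse 2 (adjusted p = 0.0636) or mouse 3 (adjusted p = 0.0974). The log2 fold changes kept their sign in these fits, and the 5 members over all days passed without mouse 1 of day 1 as well (Hdac4 1.11, Hdac5 -0.47, Hdac9 -1.001, Gadd45a 2.86, and Cdkn1a 0.57).

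Markers of other cells were set beside these results. Of 4 neutrophil markers, S100a8 rose over all days (log2 fold change 3.62, limma, adjusted p = 0.00582) and at day 7; the summed level of the 4 ran from 24.5 to 945 TPM in sham and 94.5 to 1975 TPM in denervated samples at day 1, and from 43.7 to 243 TPM and 1356 to 2648 TPM at day 7. S100a8 and S100a9 made up nearly all of that sum and are also made by stressed keratinocytes. Mean Csf3r was 2.66 TPM in sham and 2.48 TPM in denervated samples, and mean Cxcr2 was 1.68 and 1.71 TPM. Over all days 3 of 4 neutrophil markers had a positive log2 fold change (median 0.98). At day 7 4 of 4 were positive (median 1.99), with Csf3r at 0.56 and Cxcr2 at 0.41. None of the 5 macrophage, 5 fibroblast, 4 endothelial, 4 Schwann cell, 6 keratinocyte, 5 hair follicle, or 4 cycling-cell markers passed the test, and of the 4 satellite cell markers Pax7 averaged 0.16 TPM in sham and 0.191 TPM in denervated samples, with Calcr below both. Some sums differed by side: the 5 hair follicle markers summed to 1754 to 3258 TPM in sham and 489.7 to 1547 TPM in denervated samples at day 3, with a median log2 fold change of -1.20 and 5 of 5 negative. The 4 Schwann cell markers summed to 371 to 674 TPM in sham and 313 to 315 TPM in denervated samples at day 7, and the 5 macrophage markers to 141 to 417 TPM and 278 to 624 TPM, with a median of 0.84 and 5 of 5 positive. Of the fibroblast markers, 5 of 5 were positive at day 7 (median 0.53) and 5 of 5 negative at day 3 (median -0.11). The part of these cells in the members' changes was not tested.

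The muscle markers differed between sides in some mice, by log2 differences of their geometric mean from -0.90 (mouse 3 of day 1) to 0.70 (mouse 1 of day 1) and, at days 3 and 7, from -0.15 to 0.36. Of the 8 muscle markers, Actn3 rose at day 3 (2.61, limma, adjusted p = 0.0475) and day 7 (1.64, adjusted p = 0.00997), and Ckm fell at day 7. Rescaled to the muscle markers, the fold changes over all days were close to the unscaled ones (Hdac4 1.00, Hdac5 -0.44, Hdac9 -1.003, Gadd45a 2.56, and Cdkn1a 0.54 on the log2 scale), but the spread was wider and of these Gadd45a alone passed (adjusted p = 5.47e-06), with adjusted p = 0.197 for Hdac4, 0.0855 for Hdac9, and 1.0 for Hdac5 and Cdkn1a.

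The genes around this axis were described from lists of its known partners. The myogenin and acetylcholine receptor list held the largest changes: 5 of 8 tested genes rose over all days, 6 of 9 on day 3, and 5 of 9 at day 7, and none fell. Musk and Chrng were tested only because their denervated samples passed the filter. Of the 7 others, 4 rose over all days, 4 on day 3, and 4 at day 7, with a median log2 fold change over all days of 1.89, against 0.01 for all 14757 genes. Myog, the transcription factor that Dach2 is known to repress, rose by 4.54 over all days (limma, adjusted p = 3.67e-08), from a mean of 3.53 to 104 TPM. At day 1 the Myog difference was 4.05 (SE 0.51), though it did not pass (adjusted p = 0.281).

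The acetylcholine receptor subunits Chrna1 (2.65), Chrnb1 (1.89), and Chrnd (3.14) and the receptor-clustering kinase Musk (1.95) rose over all days on the log2 scale. Chrng, the fetal receptor subunit, was tested at days 3 and 7 alone and rose by 5.71 and 5.16. The ubiquitin ligase gene Trim63 (0.56, adjusted p = 0.591) and Chrne, the adult subunit (0.21, adjusted p = 0.757), did not pass over all days.

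Among MEF2 target genes, 0 of 10 passed over all days in limma, where the median log2 fold change was -0.55 and 8 of 10 values were negative. At single days Hrc, a calcium-binding protein of the sarcoplasmic reticulum, fell at day 3 (-1.35, adjusted p = 0.037), and the muscle creatine kinase gene Ckm (-1.12, adjusted p = 0.01) and the nuclear receptor gene Nr4a1 (-1.05, adjusted p = 0.00971) fell at day 7. The mean level of Ckm went from 1955 TPM in sham to 1199 TPM in denervated samples, and Smpx, an abundant muscle gene of the list, had means of 381 and 350 TPM.

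Of 11 tested kinases that act on class IIa deacetylases, Camk2a fell over all days (-1.06, SE 0.23, limma, adjusted p = 0.0147), and was lower in 9 of 9 mice, with means of 8.15 and 3.38 TPM. The most abundant kinases of the list, Mark2 (-0.11, adjusted p = 0.719) and Camk2b (0.34, adjusted p = 0.643), did not pass. None of the 10 other histone deacetylases and corepressors passed at any day or over all days, with Hdac2 at 0.03 and Hdac3 at 0.01 on the log2 scale over all days.

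Beside Gadd45a, none of 8 ATF4-related stress genes and none of 4 GADD45 family members and partners passed at any day or over all days. Atf4 itself was at -0.02 (adjusted p = 0.956) and its target Nupr1 at 0.03, while Gadd45g, a paralogue of Gadd45a, was at -0.62 (adjusted p = 0.279), with Pcna, a partner of GADD45 proteins, at 0.08. Beside Cdkn1a, 1 of 9 tested p53 and CDK inhibitor genes passed: Eda2r, a receptor of the tumour necrosis factor family, rose by 1.77 over all days (adjusted p = 0.000205), by 1.92 on day 3, and by 2.52 at day 7. Phlda3 (0.07) and Ccng1 (-0.14), the most abundant p53 targets of that list, did not pass over all days.

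**Figure D4:**
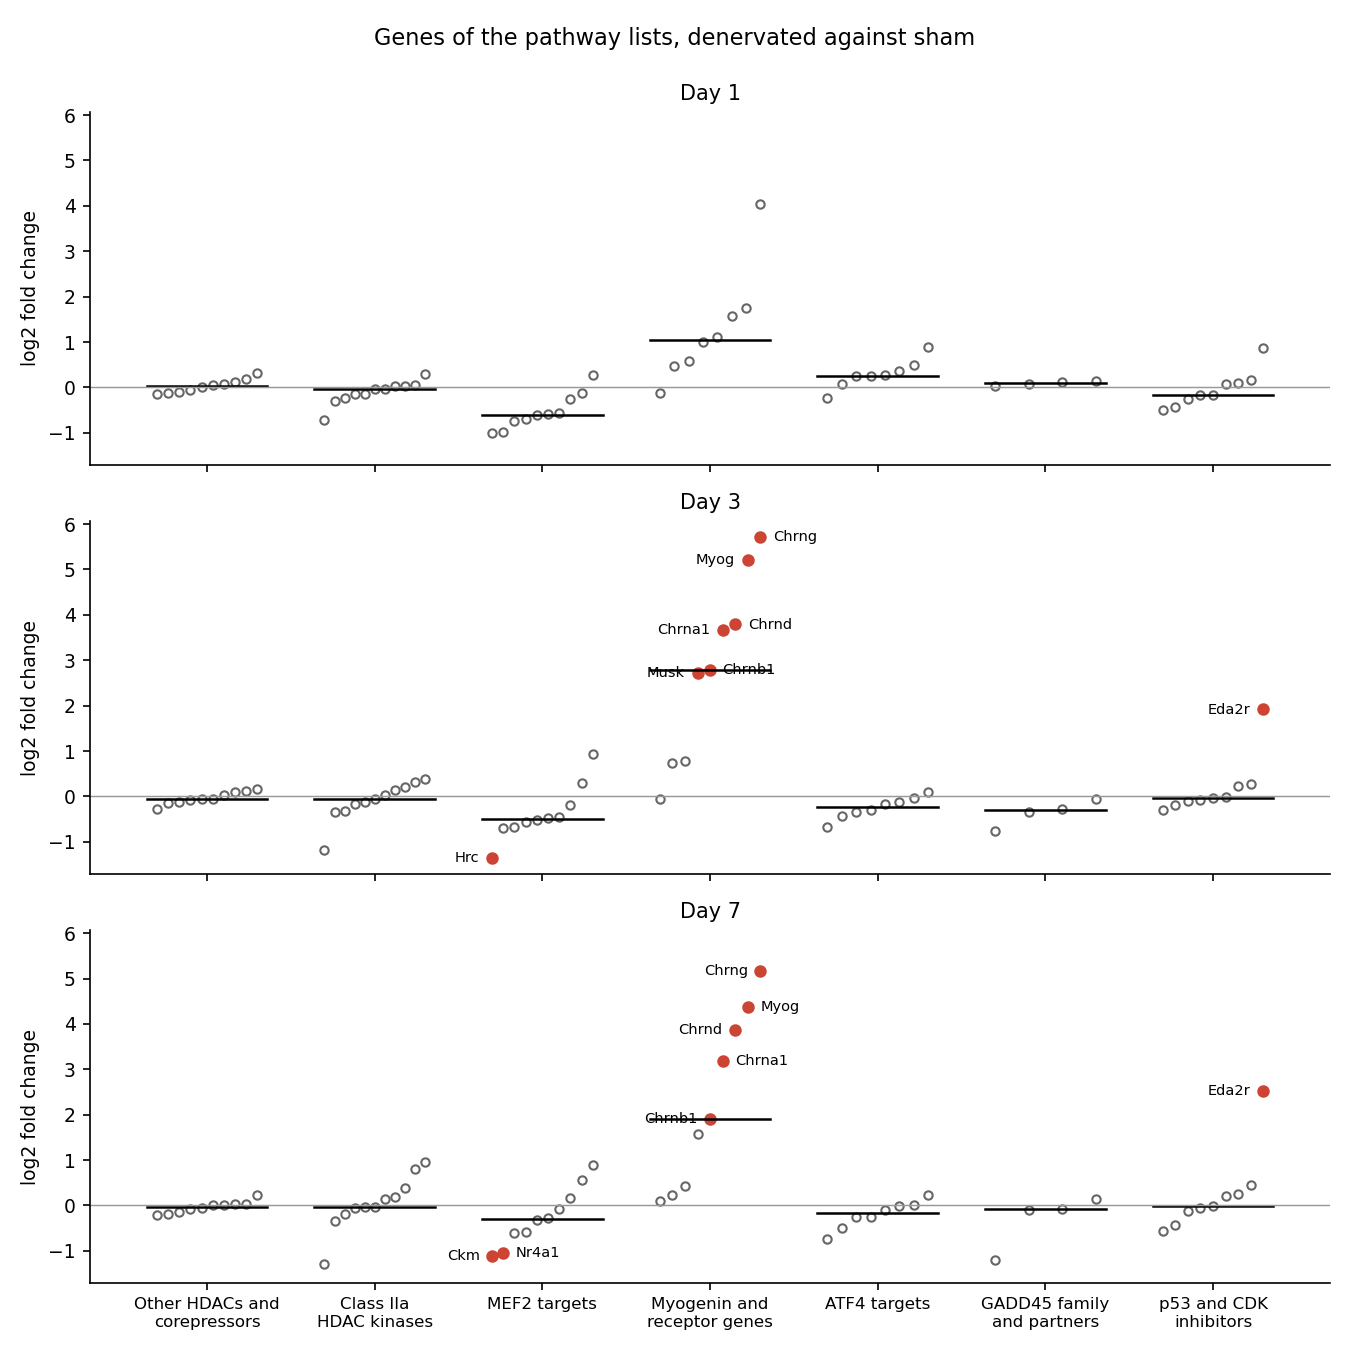
Log2 fold changes, denervated against sham (y axis), of the genes in 7 partner lists (x axis) at days 1, 3, and 7 (panels from top to bottom). Each circle is a gene, filled red circles with a name have an adjusted p below 0.05, and black bars are list medians. The named genes that rose are receptor genes, Myog, Musk, and Eda2r, and those that fell are Hrc at day 3 and Ckm and Nr4a1 at day 7.

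The genes whose 9 within-mouse differences lay nearest to those of each changed member were found among 14756 others by the root-mean-square distance on the log2 scale. Nearest to Hdac4 were Dapk2 (0.295), Ehd3 (0.303), and Eef1akmt4 (0.306), with mean Dapk2 at 22.5 TPM in sham and 45.4 TPM in denervated samples. Nearest to Gadd45a were the receptor subunit gene Chrna1 (0.605), Plekhh1 (0.631), and Ankrd2 (0.684), a stress-responsive ankyrin repeat gene of muscle that went from 55.0 to 438 TPM. Nearest to Cdkn1a were Ugcg (0.152), Pold4 (0.161), and Myo18a (0.168).

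Hdac5 lay nearest to Tmem94 (0.138), Klhdc3 (0.15), and Thra (0.166), the last of which encodes a thyroid hormone receptor. Hdac9 lay nearest to the inward rectifier potassium channel gene Kcnj2 (0.295), Art1 (0.323), and Asb18 (0.344), and Kcnj2 went from a mean of 12.01 TPM in sham to 6.37 TPM in denervated samples. A small distance reflects in part a small spread of both genes over the 9 mice, and these genes were chosen by that distance, so that it is given as a description.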

How the data were processed

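RNA from 18 whisker pad samples of 9 mice was read on an Illumina sequencer from TruSeq libraries. The authors base-called reads with bcl2fastq2 2.17.1.14, removed duplicates with ParDRe, trimmed with Fastp, pseudoaligned to GRCm38 cDNA with Kallisto 0.43.1, and loaded Sleuth. The deposited signal is TPM that the authors normalized between samples, with sums of 833186 to 1143839, where the tests had been planned for plain TPM. Transcripts were matched to GENCODE M21 (98.5% of 113194) and summed per gene. Limma 3.58.1 (R 4.3.3) was fitted to log2(TPM + 0.5) with a mean-variance trend, over all days with terms for day and injury, at each day on its 6 samples, and for differences between days on all 18. Genes needed a TPM of at least 1 in 47% of samples, and p-values were adjusted over all genes. Python 3.11.15 did the rest. The unblocked limma fits and the sign-flip test were run on simulated data with known changes. For limma the simulated samples were drawn independently, with no effect shared by the sides of a mouse, so they cannot cover the pairing.

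The 2 sides of a mouse are paired by the labels, and same-mouse residuals correlated by 0.16 to 0.57. At day 7 the names of the deposited columns and the sample titles number the mice differently. Columns were matched to samples there by sequencing index, day, and side, and the mouse numbers used here are those of the columns. The mouse was a block in an alternative fit. Low values lay near whole reads in 77% to 86% of cases per sample (within 0.1; 20% if even), which gave the depth and covers counting error only. In the unblocked limma fits the 2 sides of a mouse entered as separate samples, so those p-values rest on the spread between samples. With the mouse as a block, and in the sign-flip test, they rest on the spread of the within-mouse differences.

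The members and lists were chosen with earlier results of these data known. The genes named were every member, each gene of the reported partner lists that passed plus up to 2 further ones with the highest mean TPM, transcripts with at least 10% of a member's TPM, and the 3 nearest genes of each changed member. Gadd45a-202, Hdac5-202, and single marker genes lie outside that rule and were named after their values were seen. The result of 1 further partner list is not reported here. Alternatives were other pseudocounts (0.1 and 1), minimums (above 0 and at least 5), scalings, no trend, 1 shared fit, the top transcript, and leaving out each mouse; coding transcripts only was added after seeing the data.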

Additional observations from a re-analysis of the deposited data

Results flagged for a closer look

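The effect of denervation on Mef2a differed between days. Its log2 fold change was higher at day 3 than at day 1 by 1.58 (limma, adjusted p = 0.00188) and higher at day 7 than at day 1 by 1.16 (limma, adjusted p = 0.0192). In each of the 3 mice of day 1 Mef2a was lower on the denervated side, and in each of the 6 mice of days 3 and 7 it was higher. Without mouse 1 of day 1, the mouse with low muscle markers, the differences were 1.71 (adjusted p = 0.003) and 1.28 (adjusted p = 0.0206). The second difference was lost without mouse 2 (adjusted p = 0.138) or mouse 3 of day 1 (adjusted p = 0.2), without any 1 mouse of day 7, and with the mouse as a block (adjusted p = 0.0951). It was also lost with an equal sum in every sample (limma, adjusted p = 0.0578). Rescaled to the muscle markers, the 2 differences were 1.39 and 1.00, and neither passed.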

How the results depend on the processing

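Of the 8 members tested over all days, 5 passed, and between 4 and 6 did under each alternative other than rescaling to the muscle markers, which left 1 (Gadd45a) and 1 member transcript of 5. That rescaling also left 1 member at day 3 and 0 for the differences of days 1 and 3 and of days 1 and 7, and it moved the median of all genes by up to -0.18. At day 3, 3 members passed with an equal sum in every sample, 3 with the top transcript of each gene, and 0 to 2 without 1 of the mice (133, 7, and 0 genes in all, against 217). At day 7, 0 to 1 member passed without 1 of the mice (127, 1, and 5 genes in all, against 230). With the mouse as a block 3 members passed at day 3, 5 at day 7, and 0 for days 1 and 7, and the block changed no other call of a member. Without 1 mouse, 1 to 2 members differed between days 1 and 3 and 0 to 1 between days 1 and 7, and 0 did with an equal sum. A TPM of at least 5 left 3 member transcripts, since fewer were tested. The causes of the other changes were not tested. Signs turned only in values that did not pass the test: Mef2d at day 1 was -0.013 by its top transcript, -0.0049 by coding transcripts, and -0.19 to 0.15 without 1 mouse; Mef2d between days 1 and 7 was -0.086 under muscle scaling and -0.068 to 0.27 without 1 mouse; Cdkn1a between days 1 and 3 was -0.080 under muscle scaling. Hdac5 between days 1 and 7 was 0.22 by coding transcripts and between days 3 and 7 was -0.063 by its top transcript. Between days 3 and 7, Mef2c was -0.27 by its top transcript and -0.11 to 0.54 without 1 mouse, and Hdac4 was -0.20 to 0.013 without 1 mouse. Mef2c-201 over all days was -0.023 with a pseudocount of 0.1 and -0.17 to 0.35 without 1 mouse. By its top transcript Hdac5 was lost over all days (adjusted p = 0.201), and Cdkn1a at day 7 was gained with median-of-ratios scaling (adjusted p = 0.0497) and an equal sum (adjusted p = 0.0482). Of the single values, leaving out a mouse kept the call and sign in 589 and the other settings in 843, with 25 and 24 calls lost and 3 and 5 gained. Depth limits Dach2, with at most 24.7 reads in a sample, and Hdac9-205.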
